A study of Mus musculus with 4 samples.

Results

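Genes of fatty acid synthesis and desaturation were followed in single epithelial cells of the neonatal mouse small intestine: Scd1, Scd2, Fads1, Fads2, Elovl5, Elovl6, Fasn, Acaca, Acly and Srebf1, which are 10 of the 32227 genes in the count matrices. Their identifiers there, in the same order, are ENSMUSG00000037071, ENSMUSG00000025203, ENSMUSG00000010663, ENSMUSG00000024665, ENSMUSG00000032349, ENSMUSG00000041220, ENSMUSG00000025153, ENSMUSG00000020532, ENSMUSG00000020917 and ENSMUSG00000020538. They are not a blind choice: they were picked as the pathway around Scd2, and Scd2 was picked because its level was high in the ileum and low in the jejunum in these same libraries. The level of a member in ileum against jejunum is therefore a description: fold changes with their errors, and counts past a threshold printed beside the share of all genes past it, from which nothing is read. The comparison of villus with crypt cells within a region, and the comparison of region differences between those cells, were tested, and the second of these shares its libraries with the values that chose the members.

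A 2 cm piece of jejunum and one of ileum were taken from each of 2 wild-type mice at postnatal day 6, a suckling age, giving 4 libraries of EDTA-released epithelium made by PIPseq, a droplet method that counts molecules by their unique molecular identifiers (UMIs). Both mice carried the WT genotype, C57BL/6J in the study's methods, and no sample was treated. Ileum 1 and jejunum 1 came from the mouse labelled male and batch 1, and ileum 2 and jejunum 2 from the mouse labelled female and batch 2, so that mouse, labelled sex and batch cannot be told apart.

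Of 36202 called cells, 30521 passed the filters (5722 to 8997 per library). The median UMI count of a kept cell was 12047.5 and 10916 in ileum 1 and 2, and 4690 and 5884 in jejunum 1 and 2, so the ileal libraries were deeper, and the median mitochondrial share was lower in the ileum (3.61% and 3.74%) than in the jejunum (6.37% and 9.94%). Xist was at 575 and 466 CPM (a gene's UMIs scaled to a common total per library) in the libraries labelled male and below 1 CPM in those labelled female, and Y-linked Eif2s3y had the opposite pattern (at most 0.119 CPM against 67.0 and 88.1). The sex labels thus go against the data in all 4 libraries, and libraries are named here by number alone. Pairs of libraries shared at most 1 cell barcode.

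Clusters were named from marker genes without using the members. The villus class (enterocyte-like) held 6164, 6819, 7809 and 4928 cells in ileum 1, ileum 2, jejunum 1 and jejunum 2, and the crypt class (stem/progenitor-like, led by Olfm4, Mki67, Top2a and Lgr5) held 499, 508, 548 and 497. The summed level of 14 stem and proliferation markers was 4117 to 5719 CPM in the crypt class and 244 to 268 CPM in the villus class. The 14 enterocyte markers reached 21714 to 47829 CPM in the villus class but also 5467 to 9440 CPM in the crypt class. The clusters were made after an integration step (CCA) that aligns the 4 libraries, so a cluster shared by the regions does not show that their cells are alike. The study itself reported enterocyte clusters that were mostly jejunal or mostly ileal. Here the villus class is nearly the same set of clusters in both regions, except cluster 13, led by Reg3g, Rian and Meg3. That cluster held 491 and 394 ileal but 5 and 2 jejunal cells. The mixture of these clusters differed by region. Cluster 0, led by Serpina1a, held 360 and 371 ileal but 1363 and 961 jejunal cells. Cluster 6, led by Aldh1a1 and Fabp6, held 584 and 797 ileal but 438 and 287 jejunal cells. What this mixture does to the class levels was not tested. A further cluster led by Hbb-bs (2415 cells) was left unnamed and out of the classes.

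Cells build fatty acids in the cytosol. ATP citrate lyase (Acly) turns citrate into acetyl-CoA, acetyl-CoA carboxylase (Acaca) makes malonyl-CoA from it, and fatty acid synthase (Fasn) joins these units into palmitate. Elongases then lengthen the chain (Elovl6 acts on saturated chains, Elovl5 on polyunsaturated ones), stearoyl-CoA desaturases (Scd1, Scd2) place a first double bond to make oleate-type fatty acids, and the front-end desaturases Fads2 and Fads1 act in turn on dietary linoleate and linolenate to give arachidonate, EPA and DHA. Srebf1 encodes SREBP-1, the transcription factor that drives most of these genes, and in the suckling gut the milk supplies a large load of fat to the same cells.

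The window around the transcription start was read for the members that a RefSeq promoter table (build GRCm38.p6) holds, because SREBP and its partner NF-Y are known to act close to the start of these genes. It had entries for 7 of the 10 members, in 9 windows of 300 bases (250 before the start and 50 after it), and none for Scd1, Scd2 or Fads1. Fads2 and Fasn are shown as matched members that shared the ileal pattern described below, the former without and the latter with the NF-Y letters, and Elovl5 as one with those letters whose ileal excess was smaller. Capitals mark CCAAT, the core letters of the NF-Y motif, on either strand; all are written 5′ to 3′ on the strand of the gene.
Fads2, chr19:10101454-10101753, minus strand: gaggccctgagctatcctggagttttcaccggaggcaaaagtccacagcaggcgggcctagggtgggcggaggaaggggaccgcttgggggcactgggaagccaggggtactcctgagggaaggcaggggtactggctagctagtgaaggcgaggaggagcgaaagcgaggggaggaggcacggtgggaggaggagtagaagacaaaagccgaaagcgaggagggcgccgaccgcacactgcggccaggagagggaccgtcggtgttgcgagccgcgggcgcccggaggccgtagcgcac
Fasn, chr11:120824498-120824797, minus strand: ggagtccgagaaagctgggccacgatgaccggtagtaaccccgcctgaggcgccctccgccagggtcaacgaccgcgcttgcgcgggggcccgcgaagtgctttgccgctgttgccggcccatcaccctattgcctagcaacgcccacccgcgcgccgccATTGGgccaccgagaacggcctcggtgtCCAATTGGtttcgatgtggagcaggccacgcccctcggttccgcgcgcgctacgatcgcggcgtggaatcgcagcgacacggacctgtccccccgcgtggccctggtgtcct
Elovl5, chr9:77917115-77917414, plus strand: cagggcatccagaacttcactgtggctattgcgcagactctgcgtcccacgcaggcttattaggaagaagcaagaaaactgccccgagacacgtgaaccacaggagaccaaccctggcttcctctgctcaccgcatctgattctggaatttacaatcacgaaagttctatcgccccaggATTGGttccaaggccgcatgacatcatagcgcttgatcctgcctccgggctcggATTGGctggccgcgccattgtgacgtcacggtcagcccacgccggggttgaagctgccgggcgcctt

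CCAAT was found, on either strand, in 5 of the 9 windows and in 4 of the 7 matched members (Elovl5, Srebf1, Acly and Fasn), against 37.4% of all 32851 windows in the table. In the Fasn window 2 matches on opposite strands overlap and read as 1 run of capitals. The letters TCACNCCAC, a spelling of the sterol response element, were in none of the 9 windows and in 1.24% of all windows, on either strand. Fads2, with no capitals above, therefore has neither set of letters in this window, and nothing about the binding of a factor follows from that.

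Scd2 was the member with the sharpest regional pattern. In villus cells its level was 326 CPM in ileum 1 and 134 CPM in ileum 2, against 0.404 CPM in jejunum 1 and 0.147 CPM in jejunum 2, which rest on 25306, 11160, 21 and 6 UMIs. Both ileal libraries were far above both jejunal ones. The mean was 230 ± 136 CPM (SD, n = 2) in ileum and 0.276 ± 0.182 CPM (SD, n = 2) in jejunum, a ratio of 833, and by mouse the ratio was 806 and 910. In the pooled counts it was 777, with a 95% interval of 534 to 1180 that covers counting error only. The 2 ileal libraries also differed from each other: Scd2 was 2.43 times higher in ileum 1 than in ileum 2 in villus cells and 3.05 times higher in crypt cells, a difference between the 2 mice that cannot be told apart from batch.

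The crypt class of the ileum held Scd2 as well. Its level there was 168 CPM in ileum 1 and 55.0 CPM in ileum 2, and 0.289 and 0.270 CPM in jejunum 1 and 2, where each value is a single UMI. The pooled ratio in crypt cells was 409, with a counting interval of 113 to 3386. Scd2 was thus higher in ileum than in jejunum in both classes. RNA released by villus cells can enter droplets of other cells. The crypt class held the 14 enterocyte markers at a median of 24.8% (ileum 1) and 21.3% (ileum 2) of their villus level. The lowest marker was at 11.8% and 10.2%, whereas Scd2 stood at 51.6% and 41.1%. The highest marker is not given, and how much of the crypt Scd2 came from villus cells was not tested.

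Scd1, the closest relative of Scd2 and the main desaturase of adult liver, was close to absent. Villus cells held 14, 19, 8 and 0 Scd1 UMIs in ileum 1, ileum 2, jejunum 1 and jejunum 2 (0.180, 0.228, 0.154 and 0 CPM), and crypt cells held 1 UMI in all 4 libraries together. The regional values of Scd1 rest on so few molecules that no direction was read from them.

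Fads2, the delta-6 desaturase at the entry of the polyunsaturated branch, had 63.9 and 71.7 CPM in the villus cells of ileum 1 and 2 and 23.9 and 18.9 CPM in those of jejunum 1 and 2. All ileal values lay above all jejunal ones, with a ratio of 2.67 in mouse 1 and 3.79 in mouse 2. In crypt cells Fads2 was high in both regions, at 294, 295, 246 and 211 CPM in the same order of libraries, and the regional gap there was small.

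Fads1, the delta-5 desaturase that acts after Fads2, was at 4.26 and 2.99 CPM in ileal villus cells and at 0.674 and 0.785 CPM in jejunal ones. Its ileal values were 6.32 times (mouse 1) and 3.81 times (mouse 2) the jejunal ones. Crypt cells had 40.6 and 36.4 CPM in ileum and 46.5 and 46.4 CPM in jejunum, so Fads1 was the one member whose jejunal crypt values both lay above the ileal ones.

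Fasn had 75.6 and 54.8 CPM in ileal villus cells and 25.1 and 22.8 CPM in jejunal ones. Acaca had 34.4 and 27.0 CPM against 12.0 and 8.73 CPM. For both enzymes every ileal villus value was above every jejunal one, and the ratio of regional means was 2.72 for Fasn and 2.96 for Acaca. The step before them was less regional: Acly stood at 54.7 and 53.6 CPM in ileum and at 43.0 and 34.1 CPM in jejunum, a ratio of 1.41. In crypt cells the gap was smaller for Fasn (85.6 and 81.9 against 70.4 and 61.0 CPM) and for Acaca (57.3 and 45.9 against 41.0 and 32.9 CPM).

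The elongases were spread more evenly along the intestine. Elovl5 had 36.6 and 45.9 CPM in ileal and 23.3 and 21.7 CPM in jejunal villus cells, and Elovl6 had 258 and 182 CPM in ileum and 191 and 165 CPM in jejunum. Elovl5 was thus higher in both ileal libraries with a ratio of 1.83, while the Elovl6 values of the 2 regions overlapped. The regulator Srebf1 overlapped too, at 95.5, 70.3, 77.1 and 119 CPM in ileum 1, ileum 2, jejunum 1 and jejunum 2, and its order between regions was opposite in the 2 mice (ratios of 1.24 and 0.592).

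**Figure D1:**
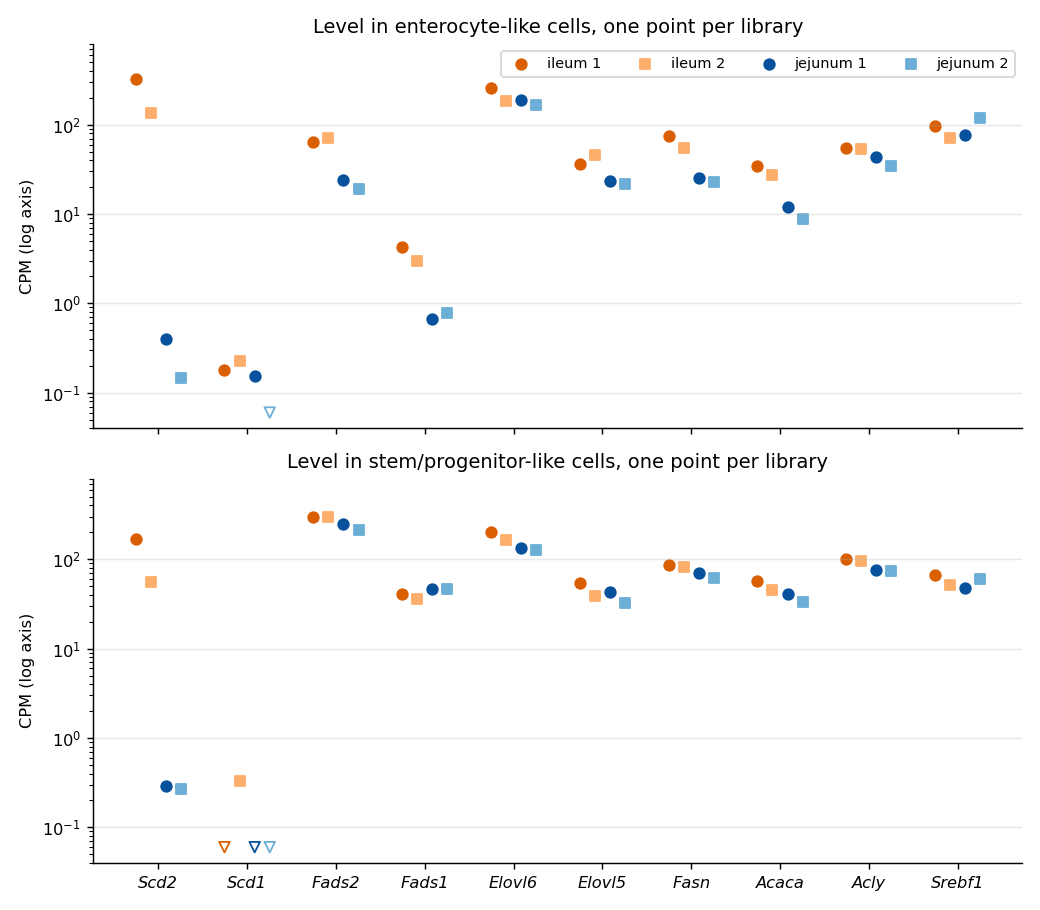
Level of each member (CPM of summed UMIs, log axis) in the villus (enterocyte-like) and crypt (stem/progenitor-like) class of each of the 4 libraries, with open triangles at the foot of the axis for 0 UMIs. Scd2 stands far higher in both ileal libraries (326 and 134 CPM against 0.404 and 0.147 CPM in villus cells), while Elovl6 and Srebf1 overlap between regions in villus cells.

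A member was counted as sharing the ileal pattern of Scd2 where both ileal libraries were above both jejunal libraries and the ratio of regional means was at least 2. Scd1 was set aside, being the 1 member under 1 CPM in villus cells, though its few UMIs met the rule there (ratio 2.65). In villus cells Fads1, Fads2, Fasn and Acaca met it with Scd2, 5 of the other 9. Just inside the ratio was Fasn (2.72), and just outside it Elovl5 (1.83). Of the 13645 genes whose villus mean reached 1 CPM, 7.06% met it, and since the members were picked on this contrast nothing is read from their larger share. In crypt cells Scd2 was the only one of these 9 that met it, where 4.88% of 15785 genes did. No member met the opposite pattern, with jejunum above at the same ratio, in either class, where 4.46% (villus) and 2.21% (crypt) of genes did. Fads2, Elovl6, Fasn, Acaca and Acly were above in both ileal crypt sums with ratios under 2, and Elovl5 and Srebf1 overlapped.

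The same differences were fitted across all genes, again as a description. In villus cells the log2 fold change of ileum over jejunum was 9.51 ± 0.66 (SE) for Scd2, 2.19 ± 0.29 for Fads1, 1.55 ± 0.17 for Fads2, 1.45 ± 0.20 for Acaca and 1.32 ± 0.17 for Fasn. These 5 of 10 members were beyond an adjusted threshold of 0.05 on the side that the choice of members fixed, where 4.20% of all genes tested were (7.30% in either direction), and the count is no evidence of its own. The others were at 1.16 ± 0.89 (Scd1), 0.76 ± 0.18 (Elovl5), 0.38 ± 0.15 (Acly), 0.18 ± 0.18 (Elovl6) and -0.37 ± 0.26 (Srebf1). With the mouse as a block Elovl5 was beyond it as well, beside 9.58% of all genes in that direction. The count fell to 1 without ileum 1, to 1 without ileum 2 and to 0 with no filter on low counts, where 1 gene in all was called, and it was 3 without jejunum 2. Fads1, Fads2, Fasn and Acaca kept their direction with each library left out. With every sum thinned to the smallest one, or with cells under 10% mitochondrial UMIs alone, it stayed at 5.

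In crypt cells Scd2 had a log2 fold change of 8.42 ± 0.81, as its choice implies, and was the single member of the 9 fitted beyond the threshold, beside 1.32% of all genes in that direction, 0.970% in the other and 2.29% in both together. The other 8 lay between 0.44 ± 0.18 (Acaca) and -0.31 ± 0.16 (Fads1). With the mouse as a block 4 members were beyond it (Scd2, Elovl6, Acaca and Fads2), beside 6.45% of all genes in that direction. The median over the members was 1.24 in villus and 0.32 in crypt cells, beside medians of -0.01 and 0.00 over all genes tested.

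**Figure D2:**
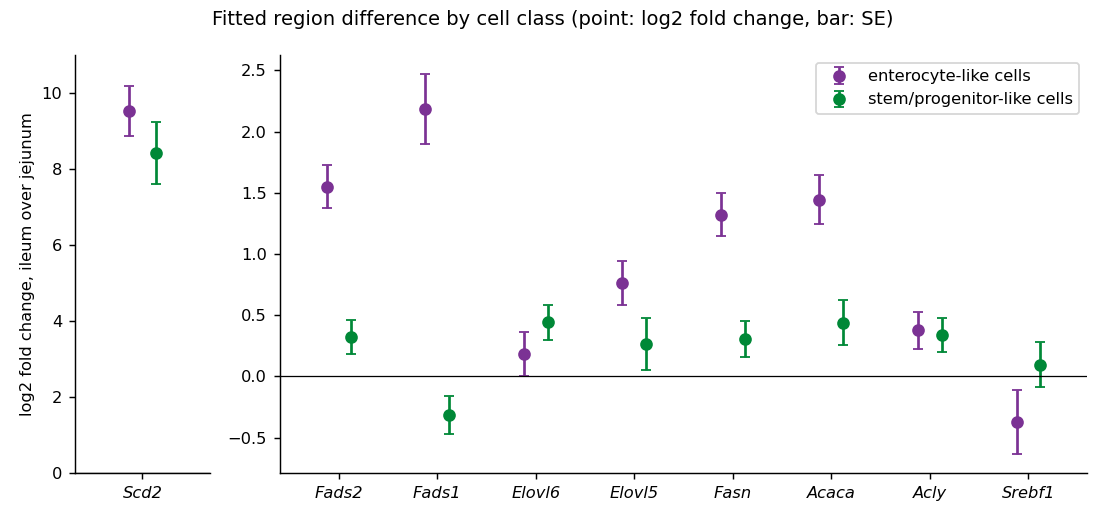
Fitted log2 fold change of ileum over jejunum for each member in the villus and the crypt class, with bars of 1 SE and a panel of its own for Scd2. Fads1, Fads2, Acaca and Fasn lie between 1.32 and 2.19 in villus cells and between -0.31 and 0.44 in crypt cells.

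Villus and crypt cells of the same libraries were compared next, within each region and with the library as a block. The front-end desaturases fell steeply from crypt to villus. Fads1 fell by 2.88 ± 0.19 on the log2 scale in ileum (edgeR's quasi-likelihood test, Benjamini-Hochberg adjusted p = 8.1e-12) and fell by 5.38 ± 0.23 in jejunum (adjusted p = 2.1e-15). In CPM the crypt level of Fads1 was 9.53 and 12.2 times the villus level in ileum 1 and 2, and 69.0 and 59.1 times in jejunum 1 and 2. Fads2 fell by 1.59 ± 0.10 in ileum (edgeR's quasi-likelihood test, adjusted p = 4.5e-12) and by 2.80 ± 0.11 in jejunum (adjusted p = 5.4e-16).

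Scd2, Srebf1 and Elovl6 rose toward the villus in the ileum. Scd2 was higher in ileal villus cells by 1.64 ± 0.11 (edgeR's quasi-likelihood test, adjusted p = 1.6e-11). In CPM, a different scale on which this rise was smaller, its villus level was 1.94 and 2.43 times the crypt level in ileum 1 and 2. Srebf1 was higher by 1.02 ± 0.12 in ileum (edgeR's quasi-likelihood test, adjusted p = 1.5e-07) and by 1.47 ± 0.12 in jejunum (adjusted p = 3.0e-10). The elongase Elovl6 was higher by 0.79 ± 0.11 in ileum (edgeR's quasi-likelihood test, adjusted p = 8.1e-07) and by 1.06 ± 0.11 in jejunum (adjusted p = 9.2e-09). Of jejunal Scd2, with 1 crypt UMI in each library, the difference was 0.55 ± 0.90 (edgeR's quasi-likelihood test, adjusted p = 0.664).

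The synthesis enzymes fell from crypt to villus in the jejunum. Acaca fell by 1.22 ± 0.14 there (edgeR's quasi-likelihood test, adjusted p = 1.0e-07) and Fasn by 0.84 ± 0.13 (adjusted p = 6.0e-06). In the ileum their differences did not pass the test, at -0.21 ± 0.13 for Acaca (edgeR's quasi-likelihood test, adjusted p = 0.179) and 0.16 ± 0.12 for Fasn (adjusted p = 0.281). Fasn in ileum passed as higher in villus cells without ileum 2 (0.42, edgeR's quasi-likelihood test, adjusted p = 0.0375), so its direction there was not settled. Acly fell by 0.32 ± 0.11 in ileum (edgeR's quasi-likelihood test, adjusted p = 0.0183) and by 0.36 ± 0.12 in jejunum (adjusted p = 0.0118), and its ileal call was lost in 4 of 14 alternatives (DESeq2, no filter on low counts and without either ileal library) and its jejunal call in 2 of 14 (no filter and without jejunum 2). Elovl5 differed by 0.33 ± 0.16 in ileum (edgeR's quasi-likelihood test, adjusted p = 0.0735) and by -0.13 ± 0.16 in jejunum (adjusted p = 0.518). Its ileal value rested on single libraries, at 0.79 without ileum 1 and 0.02 without ileum 2 (edgeR's quasi-likelihood test, adjusted p = 0.000561 and 0.958), and it passed in 4 of 14 alternatives.

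In all, 3 members rose and 3 fell of 9 tested in ileum, beside 31.6% of all genes higher and 25.8% lower (57.3% in all), and 2 rose and 5 fell in jejunum, beside 29.9% and 24.6% (54.5% in all). Calls were thus common among genes at large, and the scale matters: TMM factors, which centre each sum on its typical gene, put the median of all genes at -0.07 in ileum and 0.01 in jejunum, and plain library totals put it at -0.61 and -0.60. With library totals 8 of 9 members were called in each region, and Fasn turned to -0.38 in ileum, that is lower in villus cells (edgeR's quasi-likelihood test, adjusted p = 0.00902). Scd2 in ileum (1.10), Srebf1 (0.48) and Elovl6 (0.25) were higher in ileal villus cells on both scales.

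**Figure D3:**
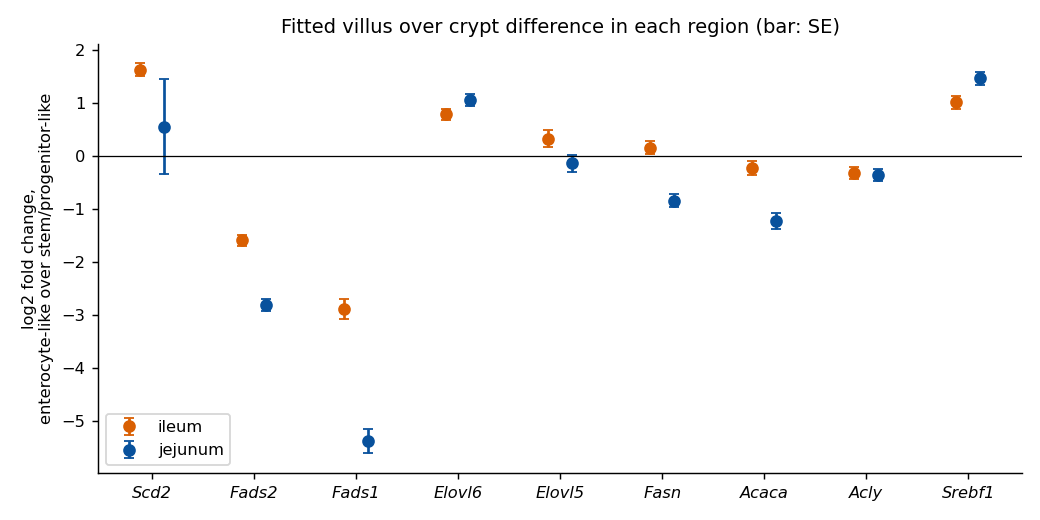
Fitted log2 fold change of villus (enterocyte-like) over crypt (stem/progenitor-like) cells for each member in ileum and jejunum, with bars of 1 SE, on the TMM scale. Fads1 and Fads2 lie lowest in both regions, and Acaca and Fasn are nearer to 0 in ileum than in jejunum.

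Whether the regional difference was unlike in villus and crypt cells was tested by the interaction of region and class. Of 9 members 4 passed, each with the larger ileal excess in villus cells, beside 5.02% of all genes tested in that direction, 4.81% in the other and 9.83% in all. The interaction was 2.49 ± 0.30 on the log2 scale for Fads1 (edgeR's quasi-likelihood test, adjusted p = 8.2e-06), 1.22 ± 0.15 for Fads2 (adjusted p = 9.0e-06), 1.00 ± 0.18 for Fasn (adjusted p = 0.000782) and 1.01 ± 0.19 for Acaca (adjusted p = 0.00147). Relative to the crypt sums of the same region, the ileal villus sums thus held more of these 4 transcripts than the jejunal villus sums. This contrast contains the villus difference between regions around which the members were chosen. The choice could therefore favour a positive sign, and the p-values do not account for that. The median over all genes was -0.04 with TMM factors and 0.04 with library totals, and the 4 calls held under each alternative run, including each library left out in turn.

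For Scd2 the interaction was 1.08 ± 1.08 (edgeR's quasi-likelihood test, adjusted p = 0.655), with jejunal crypt values of 1 UMI each, so a different regional gap in villus and crypt cells was not detectable at this depth. Elovl5 had 0.47 ± 0.23 (edgeR's quasi-likelihood test, adjusted p = 0.213) and passed without ileum 1 (0.90, adjusted p = 0.0129). Acly had 0.04 ± 0.16, Elovl6 -0.27 ± 0.15 and Srebf1 -0.45 ± 0.17 (edgeR's quasi-likelihood test, adjusted p = 0.929, 0.295 and 0.107), none of them past the threshold.

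Villus cells themselves were ranked by a score of villus tip genes (such as Ada and Nt5e) minus villus bottom genes (such as Reg3b and Lypd8) and split in 5 equal bins per library, a range of a score and not a cell type. Of the bottom genes, Reg3b and Reg3g are leading genes of the mostly ileal cluster 13, and Lypd8 of cluster 6. A bin can thus hold unlike mixtures of clusters in the 2 regions, which was not tested. Scd2 fell along it from 566 to 126 CPM in ileum 1 and from 296 to 44.4 CPM in ileum 2. Its peak thus lay in the low-score villus cells, above the crypt level of 168 and 55.0 CPM, and its highest-score cells were below that level. Fads2 fell from 131 to 12.4 CPM in ileum 1 and from 166 to 20.6 CPM in ileum 2, and in the jejunum from 40.6 to 9.06 and from 38.8 to 8.20 CPM.

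The decline was shallower for Fasn, from 96.8 to 51.5 and from 78.3 to 40.2 CPM in ileum 1 and 2, and from 32.7 to 18.3 and from 30.1 to 18.4 CPM in jejunum 1 and 2. Elovl5 fell in the ileum (49.3 to 23.4 and 57.4 to 33.1 CPM) and was level in the jejunum (21.99 to 22.5 and 20.0 to 21.7 CPM). Elovl6 changed little along the score, at 268 to 251, 184 to 199.9, 193 to 199 and 152 to 187 CPM. The regional gap of Fads2 and of Elovl5 was thus wider in the lowest than in the highest bin in both mice.

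**Figure D4:**
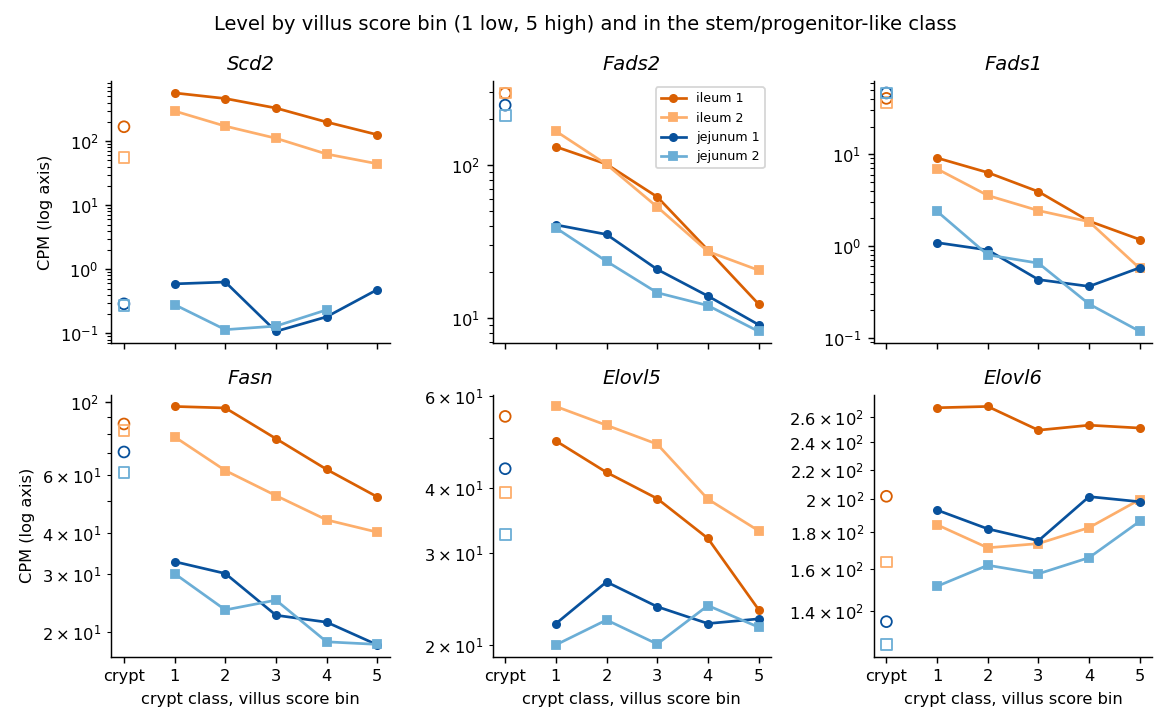
Level of members (CPM, log axis) in 5 equal bins of villus cells ordered from low (bottom) to high (tip) villus score in each library, with the crypt value as an open symbol at the left and bins with 0 UMIs not drawn. Scd2 falls from 566 to 126 CPM in ileum 1 and from 296 to 44.4 CPM in ileum 2, and Fads2 falls in all 4 libraries.

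Among the clusters of villus cells, which are given as a description only, several members had a common peak. Scd2, Fads2, Fasn, Elovl5 and Srebf1 were each highest among the ileal villus clusters in cluster 6, led by Aldh1a1, Fabp6, Ms4a18 and Lypd8, whose 10 leading genes include Fads2 itself. Scd2 was at 673 and 339 CPM there, and Fads2 at 233 and 216 CPM. The lowest Scd2 was in cluster 5, led by Enpp3 and Cox6b2, at 71.0 and 9.51 CPM. In the jejunum Scd2 was at most 2.20 CPM in any villus cluster, and Fads2 reached 84.9 and 60.9 CPM in cluster 6.

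The share of cells with a transcript was compared after thinning each cell to 2000 UMIs, because ileal villus cells were deeper (median 13974 and 13190 UMIs against 4726 and 5907). At least 1 Scd2 UMI was found in 38.5% (95% Clopper-Pearson interval 37.3 to 39.8) of villus cells in ileum 1 and in 15.7% (14.9 to 16.6) in ileum 2, but in 0.126% and 0.0211% in jejunum 1 and 2. Without thinning the shares were 69.5%, 35.9%, 0.243% and 0.122%. Thinning left out 49, 271, 684 and 196 shallower villus cells. Ileal crypt cells held it in 18.8% and 6.94%, and jejunal crypt cells in 0.197% and in 0 of 464 cells, where 3 counts would be 0.647%; unthinned, 0.182% and 0.201% of jejunal crypt cells held it. For Fads2 the shares were 10.96% and 11.9% of ileal and 3.40% and 2.73% of jejunal villus cells, and 38.9%, 42.1%, 34.9% and 29.7% of crypt cells.

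Rarer classes gave fewer molecules. In enteroendocrine-like cells (46 to 75 per library) Scd2 was at 227 and 45.9 CPM in ileum and at 8.68 and 4.12 CPM in jejunum, from 72, 13, 2 and 1 UMIs. In ileum 1 and 2 Scd2 was at 69.6% and 34.3% of its villus level, and the enterocyte markers were at medians of 39.7% and 30.6% of theirs. How much of either came from villus cells was not tested. In immune-like cells (9 to 19 per library) Scd2 was at 181, 67.0, 83.4 and 80.7 CPM, from 12, 3, 11 and 7 UMIs. The 11 and 7 UMIs of the jejunal immune-like cells stand beside 21 and 6 in all jejunal villus cells, and Elovl5 was at 316, 179, 243 and 208 CPM in them.

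Genes whose level followed Scd2 most closely were sought over 12 sums (villus, crypt and enteroendocrine cells of the 4 libraries) among 7029 genes. They were Ereg, an EGF-family growth factor (Pearson's r of 0.967), Rnf152, a ubiquitin ligase (0.939), Epas1, which encodes HIF-2 alpha (0.937), Ube2l3, a ubiquitin-conjugating enzyme (0.924), and Cldn8, a claudin of tight junctions (0.920). Cldn8 was at 138 and 114 CPM in ileal and at 9.34 and 0.687 CPM in jejunal villus cells. Ube2l3 was at 182 and 176 against 142 and 136 CPM, so a high r did not require a wide regional gap. Elovl6, whose villus values overlapped between regions, was the member nearest to Scd2 by this measure, at place 70 (r of 0.747). Acaca followed at place 278 (0.601) and Fasn at place 663 (0.488). Fads2 and Fads1, which shared the ileal villus pattern, were at places 2118 (0.252) and 3498 (0.105). Scd1, Elovl5, Acly and Srebf1 were at places 1363, 2063, 2152 and 4358. The 7029 ranked genes had a mean of at least 20 CPM in ileal villus cells. Fads1 (3.62 CPM) and Scd1 (0.204 CPM) were below that and not among them. Their places are where their r would fall, and nothing is read from that of Scd1. The 12 sums share libraries, depth and mice, so these are descriptions.

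The wider pathway was followed in 9 lists of 74 genes, of which 73 were in the matrices and none is a member. The lists, too, were chosen with earlier results of these data known. The p-values printed for their genes, here and below, do not account for that. In villus cells 67 were tested, and 5 rose and 6 fell in ileum over jejunum, beside 4.20% and 3.10% of all genes. With the mouse as a block 12 rose and 14 fell, beside 9.58% and 7.68% of all genes. The median over the lists was 0.11, against -0.01 over all genes tested, and the lists were spread to both sides of 0.

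Regulators of sterol and fatty acid synthesis were among those that rose (2 of 13 tested). Srebf2, which encodes the sterol-responsive relative of SREBP-1, was at 151 and 116 CPM in ileal and at 58.8 and 37.3 CPM in jejunal villus cells, a log2 fold change of 1.36 ± 0.23 (edgeR's quasi-likelihood test, adjusted p = 0.0341). Insig1, which holds SREBPs in the endoplasmic reticulum and is itself an SREBP target, was at 274, 199.6, 89.4 and 93.9 CPM (1.24 ± 0.17, adjusted p = 0.0241 by edgeR's quasi-likelihood test). Both rose where Srebf1 itself overlapped between regions.

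Of 10 genes of acetyl-CoA and NADPH supply 2 rose and 1 fell. Acss2, which makes acetyl-CoA from acetate, was at 32.7 and 36.7 CPM in ileum and 16.8 and 13.3 CPM in jejunum (1.10 ± 0.18, edgeR's quasi-likelihood test, adjusted p = 0.0290). The remaining gene that rose was Aacs, with Lpcat1 of the acylation list, and those that fell outside the genes named here were Acacb and Elovl2; these 4 were named after their values were seen, being below 20 CPM. In edgeR's quasi-likelihood test 0 of the 5 elongation partners passed (median 0.52), and 0 of the 5 electron suppliers (0.22), the 5 other desaturases (0.02) and the 4 genes of mitochondrial synthesis (0.15). At an unadjusted p under 0.05 the numbers were 3, 2, 0 and 0 (all higher), beside 5652 of all 19543 genes tested in either direction. With DESeq2 2, 2, 0 and 0 passed, beside 3136 of all 16978 genes in either direction. Nothing is read from these counts.

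Of 17 genes of the acylation list, which covers glycerolipids and phospholipids and also holds the lipins and Pnpla3, 1 rose in ileal villus cells. Of the rest 3 fell and 13 did not pass, and the median of the list was -0.46. Dgat2, which makes triglyceride, was at 1050.4 and 1093 CPM in ileum and at 2080.3 and 2529 CPM in jejunum (-1.22 ± 0.18, edgeR's quasi-likelihood test, adjusted p = 0.0262). The acyltransferases Agpat3 (-1.26 ± 0.21, edgeR's quasi-likelihood test, adjusted p = 0.0316) and Agpat1 (-0.87 ± 0.14, adjusted p = 0.0292) were lower in ileum as well. Of 4 acyl-CoA synthetases Acsl5 fell, at 606 and 685 against 1024 and 1271 CPM (-0.95 ± 0.19, edgeR's quasi-likelihood test, adjusted p = 0.0479). The 11 calls are thinly held, since none was left without ileum 1 or without ileum 2 and 1 was left without jejunum 2.

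In crypt cells 60 pathway genes were tested, and 0 rose and 3 fell in edgeR's quasi-likelihood test, beside 1.32% and 0.970% of all genes. At an unadjusted p under 0.05 the numbers were 4 and 8, beside 1940 of all 12987 genes tested in either direction. With DESeq2 0 and 3 passed, beside 153 and 146 of all 12168 genes. With the mouse as a block the numbers were 3 and 6, beside 6.45% and 5.61% of all genes. Me1, the NADPH-making malic enzyme, was at 10.4 and 7.53 CPM in ileal and at 32.0 and 69.6 CPM in jejunal crypts (-2.54 ± 0.38, edgeR's quasi-likelihood test, adjusted p = 0.00944). Agpat3 was lower in ileal crypts too (-1.18 ± 0.14, edgeR's quasi-likelihood test, adjusted p = 0.00332), and Acacb, which was below 20 CPM, was the remaining one. In crypts Srebf2 stood at 122, 138, 123 and 94.95 CPM, and its interaction of 1.15 (edgeR's quasi-likelihood test, adjusted p = 0.000172) was of the same sign as those of Fads1, Fads2, Fasn and Acaca.

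**Figure D5:**
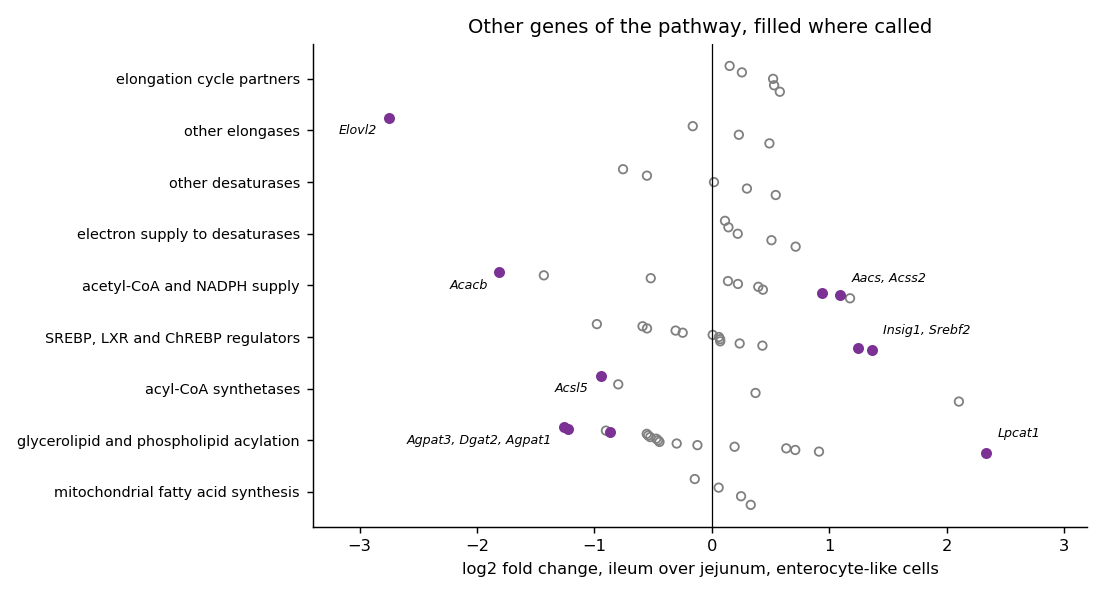
Fitted log2 fold change of ileum over jejunum in villus cells for the pathway genes tested, grouped by list, with filled points where the gene passed the threshold. Regulators Srebf2 and Insig1 lie above 1 and the acylation enzymes Dgat2 and Agpat3 below -1.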

How the data were processed

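The authors deposited UMI count matrices of 4 PIPseq libraries, written by PIPseeker at sensitivity 3 per the study's methods, against the mouse genome GRCm39 per the labels. The deposited values are raw counts per gene and cell, with no normalization. Total UMIs of called cells were 131400239, 125067265, 64391480 and 57951874 in ileum 1, ileum 2, jejunum 1 and jejunum 2, and intervals cover counting error only.

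Genes in at least 3 cells and cells with over 1000 and under 6000 genes and under 20% mitochondrial UMIs were kept. Cells were clustered in Seurat 5.3.0 (2000 variable genes less the members and the pathway lists, 50 principal components, CCA integration, 30 components, resolution 1), giving 23 clusters named from marker lists. Scrublet marked 1 or 2 cells per library, too few to have worked, so no doublets were removed. Counts were summed per library and class and tested in edgeR 4.0.16 (filterByExpr, TMM factors, glmQLFit and glmQLFTest, Benjamini-Hochberg over all genes tested, threshold 0.05) in R 4.3.3. The region fits used 4 sums with region as the only term. The pairing by mouse entered them only where the mouse is named as a block. Class and interaction fits used 8 sums with the library as a block. The code of the fits was also run on simulated counts with a single fixed dispersion, which checks the code and not the calls above. CPM scales each gene's UMIs to the total of its class sum. Levels and figures were computed in Python 3.11.15.

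Replicates are 2 mice per region. Both regions of a number come from the same mouse per the labels, so the numbers pair the samples; deviations of same-numbered libraries from the region means correlated at 0.445 (8582 genes, villus) and 0.327 (9790 genes, crypt). Alternatives were DESeq2 1.42.0, RLE factors, no filter on low counts, each library left out, cells under 10% mitochondrial UMIs, thinned sums, resolution 0.5, listed genes kept as variable genes, the 6% highest doublet scores left out and the mouse as a block. Counting the unnamed cluster as enterocyte-like and plain library totals were added after seeing the data.

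The members and lists were chosen with earlier results of these data known. All 10 members are named; so are, per pathway list, at most 3 called genes at either extreme of the fold change, given 20 CPM or more in the higher region; and the 5 genes most correlated with Scd2 in log2(CPM + 1).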

Additional observations from a re-analysis of the deposited data

Results flagged for a closer look

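The following differences between regions in the villus-over-crypt contrast passed the test of the interaction itself (edgeR's quasi-likelihood test over all genes, Benjamini-Hochberg adjusted). Among the members the log2 difference was 2.49 for Fads1, 1.22 for Fads2, 1.01 for Acaca and 1.00 for Fasn. Of the pathway genes named, it was 1.15 for Srebf2, 1.01 for Acss2, 0.99 for Me1 and 0.84 for Insig1, and -0.87 for Agpat1 and -0.74 for Dgat2. On the TMM scale Srebf2 differed by 0.57 ± 0.12 between villus and crypt in ileum and by -0.58 ± 0.13 in jejunum. The difference of these values is the interaction above. In CPM, without TMM factors, its villus level was above the crypt level in ileum 1 and below it in ileum 2. The sign in ileum thus depended on the scale. These tests use the libraries on which the members were chosen.

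Some members were present in jejunal classes outside the comparisons above, more than a count of 0 would allow. In immune-like cells of the jejunum the mean level was 82.1 CPM for Scd2, 30.5 CPM for Fads1 and 225.2 CPM for Elovl5. In jejunal enteroendocrine-like cells Fads1 had a mean of 23.1 CPM. The ileal means, in the same order, were 124, 29.9, 247 and 23.6 CPM, so the presence was not particular to the jejunum. The jejunal values rest on 14 to 68 cells per library. Their UMIs in jejunum 1 and 2 were 11 and 7 (Scd2), 5 and 2 (Fads1) and 32 and 18 (Elovl5) in immune-like cells. For Fads1 in enteroendocrine-like cells they were 4 and 7.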

How the results depend on the processing

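Of the values compared under alternatives, 84 counts stayed within 1.5 times and 16 moved. Of the single members' region differences, which carry no call here, 258 stayed within 1 SE and 16 did not. Of their tested values (class and interaction) 363 kept direction and call, 8 gained a call, 6 lost one and 1 reversed. Members called for region in villus cells were 5, and 0 with no filter on low counts, where 1 gene in all was called and 5822 had an unadjusted p under 0.05. Leaving out each library gave 1 to 5 in villus and 1 in crypt cells, 6 to 7 in each class contrast and 4 to 5 in the interaction. The replicate block gave 4 members in crypt cells, and 26 pathway genes in villus and 9 in crypt cells. Pathway genes called in villus cells (11) were 26 with DESeq2, 0 with no filter, 17 with library totals and 0 to 10 without a library; in crypt cells (3) they were 5 with listed genes kept as variable genes, 6 with no filter and 2 to 7 without a library. Over all genes 821 rose and 605 fell in ileal villus cells, 1340 and 606 with library totals, 1873 and 1501 with the block and 1905 and 1231 with DESeq2. Fasn reversed in ileal villus over crypt cells to -0.38 with library totals, by construction of that scale. Scd2 for region in villus cells ranged from 8.80 to 10.44 without a library. The block changed no other call beyond those given beside the results. The cause of the other changes was not tested. With 2 mice per region, small differences and those of low-count genes such as Scd1 and jejunal Scd2 could not be resolved. DESeq2 adjusted p-values given as NA were left out.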

Other observations

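Many of the 68 pathway genes tested differed between villus and crypt cells of a region. In ileum 36 were higher in villus cells and 16 lower, and in jejunum 32 and 22, beside 31.6% higher and 25.8% lower (ileum) and 29.9% and 24.6% (jejunum) of all genes tested. With plain library totals the counts were 27 and 24 in ileum and 25 and 30 in jejunum. By list, the numbers higher and lower in villus cells were 4 and 0 of 5 acyl-CoA synthetases in ileum and 3 and 1 in jejunum. Of 17 genes of the acylation list they were 9 and 4 in ileum and 9 and 5 in jejunum. They were 2 and 1 of 5 elongation partners in ileum and 0 and 2 in jejunum. For 5 other desaturases they were 2 and 2 in ileum and 2 and 1 in jejunum. For 4 other elongases they were 1 and 1 in ileum and 2 and 1 in jejunum. Each of these lists except the synthetases of the ileum and the elongation partners of the jejunum thus held genes that moved in both directions. Among the acylation enzymes Dgat2 was higher by 2.57 ± 0.12 and 3.31 ± 0.12 on the log2 scale in ileum and jejunum, and Agpat4 was at -4.09 and -3.93. Among the elongases Elovl1 was higher by 1.58 ± 0.11 and 2.06 ± 0.12, and Elovl7 was at -1.96 ± 0.14 and -1.88 ± 0.14. Among the desaturases Degs1 was at 1.95 and 1.17, and Fads3 at -1.87 ± 0.32 and -2.53 ± 0.33. These 6 genes passed edgeR's quasi-likelihood test in both regions and were picked after their values were seen, 1 for each direction of a list.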
